A study of Mus with 6 samples.

Results

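PPARδ (gene Ppard) and 7 further nuclear receptors (Rxra, Rxrb, Nr1h2, Nr3c1, Rara, Vdr and Esrra) were followed together with Ncor1, a corepressor that nuclear receptors recruit, in activated mouse CD4+ T cells in which VEGF-B had been neutralized. The genes were taken by symbol, and all 9 were found among the 10995 genes of the expression table. The cells were wild-type naive CD4+ T cells from mouse spleen. They were activated for 3 days with anti-CD3 (5 μg/mL), anti-CD28 (2 μg/mL) and IL-2 (100 U/mL), and received either anti-VEGF-B or normal IgG, each at 1 μg/mL. RNA from 3 libraries per group was sequenced in bulk. Levels are given in FPKM (fragments mapped to a transcript, scaled to its length and to the size of the library) and differences as log2 fold changes of FPKM + 1, anti-VEGF-B over IgG. On this scale the change of low genes is understated. The labels do not say whether the 3 libraries of a group came from separate mice or cultures, so p-values measure the spread between these libraries only.

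Nuclear receptors are transcription factors that switch on or hold back their target genes depending on small lipophilic ligands such as fatty acids, oxysterols, steroids, retinoids and vitamin D. PPARδ, LXRβ (Nr1h2), RARα (Rara) and the vitamin D receptor (Vdr) bind DNA as heterodimers with a retinoid X receptor (Rxra, Rxrb), whereas the glucocorticoid receptor (Nr3c1) and ERRα (Esrra) can act without it. In T cells, PPARδ and ERRα are known for genes of fatty acid oxidation and mitochondria, LXR for sterol and lipid genes, and the glucocorticoid receptor for anti-inflammatory and circadian genes. Bound corepressors of the NCOR family recruit histone deacetylase HDAC3, and ligand binding exchanges them for coactivators such as NCOA3, MED1 and EP300.

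The libraries carried T cell transcripts. All 9 T cell markers were present. Il2ra (-0.97, adjusted p = 0.00665), Cd3e (-0.51, adjusted p = 0.0197) and Cd5 (-0.38, adjusted p = 0.0343) were called lower with anti-VEGF-B by limma. That is 33.3% of the 9, against 23.8% of all genes tested, and none was called higher. The fold changes of Cd3d (0.10), Cd28 (0.12), Cd4 (0.03) and Lck (0.004) were above 0, and those of Cd3g (-0.43) and Cd44 (-0.18) below. Cd4 averaged 70.0 FPKM with anti-VEGF-B and 68.4 FPKM with IgG, and of the CD8 markers Cd8a did not exceed 0.182 FPKM while Cd8b1 ran from 2.27 to 4.51 FPKM. Summed B cell and NK cell markers stayed at or under 1.34 FPKM, and no erythroid marker was listed. IgG replicate 2 lay farthest out on the first principal component (27.2, against 8.76 and 11.8 for the other IgG libraries and -21.0 to -13.1 for anti-VEGF-B). The 7 myeloid markers (5 listed) summed to 29.5 FPKM in IgG replicate 3, where Lyz2 reached 16.4 FPKM, against 11.9 to 13.8 FPKM in the remaining libraries. Neither library was left out of the fit, and values without them are given below where they matter. Because RNA was measured in bulk, fewer cells of a type and less RNA per cell cannot be told apart.

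Ppard had the same mean level in both groups, and none of the 9 genes passed the test. By limma with an adjusted p under 0.05 (Benjamini-Hochberg over the 8816 genes averaging 1 FPKM or more), 0 of 9 were called, against 28.7% of all genes tested (23.8% lower and 4.87% higher with anti-VEGF-B). At an unadjusted p under 0.05, 4 of 9 passed (Rxra, Nr3c1, Rara and Esrra), against 43.2% of all genes. The groups did not overlap for 2 of 9 genes that were lower (Rxra and Rara; 38.5% of all genes) and for 1 that was higher (Nr3c1; 10.5%). In the fit without variance moderation 0 of 9 were called, but that fit called only 12 of all genes tested (0.136%). Across 124 refits of the 9 genes under other settings, 6 gave a call (3 for Rara, 2 for Nr3c1 and 1 for Esrra), and 6 of the 9 genes were called in none. The exact permutation test of a single gene cannot go below p = 0.1 with 3 libraries against 3.

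The median log2 fold change of the 9 genes was -0.15, and that of all genes tested was also -0.15, with 71.2% of genes below 0. Calls over all genes split into 2099 lower and 429 higher. This split depended on how libraries were scaled to each other. Quantile normalization gave 913 lower and 880 higher, cyclic loess gave 938 and 852, and dividing each library by its median gave 918 and 1421 and moved the median of all genes to 0.04. The fold changes of the members with larger differences are therefore also given after subtracting the all-gene median of -0.15.

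**Figure D1:**
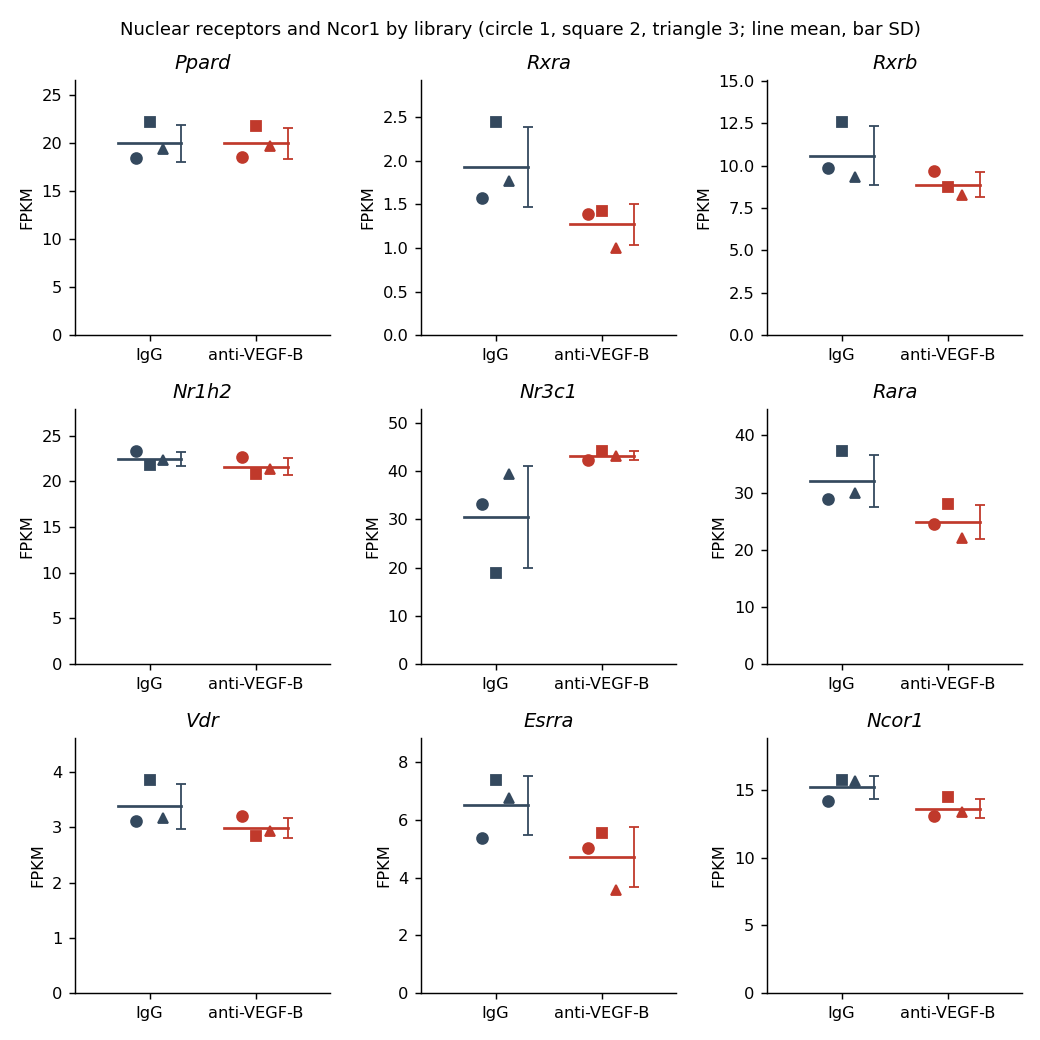
FPKM of the 9 genes in each library, with IgG in dark blue and anti-VEGF-B in red; circles, squares and triangles are replicates 1, 2 and 3, lines are means and bars are SD (n = 3). Ppard runs from 18.4 to 22.1 FPKM with IgG and from 18.5 to 21.7 FPKM with anti-VEGF-B, while the groups are apart for Rxra, Rara and Nr3c1.

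Ppard (ENSMUSG00000002250.15, chromosome 17, 28232754 to 28301469, plus strand, GRCm38) stood at 18.5, 21.7 and 19.7 FPKM in anti-VEGF-B replicates 1, 2 and 3. It stood at 18.4, 22.1 and 19.4 FPKM in IgG replicates 1, 2 and 3. The groups covered almost the same range, and their means were 20.0 ± 1.61 FPKM (SD, n = 3) with anti-VEGF-B and 20.0 ± 1.94 FPKM (SD, n = 3) with IgG. The log2 fold change was 0.0019 with a standard error of 0.095 (95% interval -0.21 to 0.22, limma adjusted p = 0.991). The interval thus left room for a change of about 0.2 on the log2 scale in either direction. After subtracting the all-gene median, the log2 fold change of Ppard was 0.15. With libraries set to a common median it was 0.22 (adjusted p = 0.0679). Its sign turned negative in 3 of the 6 fits that left out a library (replicate 2 of anti-VEGF-B, and replicates 1 and 3 of IgG), with values between -0.06 and -0.02. At its mean level Ppard lay above 79.1% of the genes tested.

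The genes whose library-to-library pattern lay closest to that of Ppard, by the root mean square difference of centred log2(FPKM + 1) over the 6 libraries, were Nfkbil1 (0.0222), Trib1 (0.0240) and Dgka (0.0274). The SD of Ppard itself over the 6 libraries was 0.108 on this scale. The 3 genes had log2 fold changes of 0.01, -0.01 and 0.01 in that order, and they differed in level, at 18.9, 7.14 and 55.4 FPKM. Fold changes this close to that of Ppard follow from how the genes were picked.

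The retinoid X receptors, the shared dimer partners, had lower means with anti-VEGF-B, and neither passed the test. Rxra (ENSMUSG00000015846.14, chromosome 2, 27676440 to 27762957, plus strand) was at 1.40, 1.42 and 0.997 FPKM with anti-VEGF-B and at 1.57, 2.44 and 1.77 FPKM with IgG. Every anti-VEGF-B library lay below every IgG library, and the log2 fold change was -0.36 ± 0.137 (SE, limma adjusted p = 0.0755), which is -0.21 after subtracting the all-gene median. It was -0.24 without IgG replicate 2 and ranged from -0.56 to -0.13 over all settings. Rxra was the lowest of the 9 genes, above only 11.9% of genes tested. Rxrb (ENSMUSG00000039656.16, chromosome 17, 34031812 to 34038393, plus strand) was several times more abundant, at 9.68, 8.72 and 8.26 FPKM with anti-VEGF-B and 9.86, 12.6 and 9.34 FPKM with IgG. Its groups overlapped, and the log2 fold change was -0.22 ± 0.118 (SE, limma adjusted p = 0.178). The ratio of Rxra to Rxrb averaged 0.143 ± 0.0211 (SD, n = 3) with anti-VEGF-B and 0.181 ± 0.0189 (SD, n = 3) with IgG (exact permutation p = 0.2, two-sided).

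Among the receptors that pair with RXR, Rara, a receptor for all-trans retinoic acid, came closest to the threshold. Rara (ENSMUSG00000037992.16, chromosome 11, 98927818 to 98974942, plus strand) was at 24.4, 28.1 and 22.1 FPKM in anti-VEGF-B replicates 1, 2 and 3 and at 28.8, 37.3 and 30.0 FPKM in the IgG replicates. The highest anti-VEGF-B library lay just below the lowest IgG library. The log2 fold change was -0.35 ± 0.118 (SE, 95% interval -0.62 to -0.08, limma adjusted p = 0.0521), and -0.20 after subtracting the all-gene median. Leaving out anti-VEGF-B replicate 2 took it past the threshold (-0.44, adjusted p = 0.0415), and so did leaving out IgG replicate 1 (-0.42, adjusted p = 0.0465). The other fits that left out a library gave no call. Rara was at -0.24 (adjusted p = 0.153) without IgG replicate 2 and at -0.27 (adjusted p = 0.168) without anti-VEGF-B replicate 3. With libraries set to a common median it was -0.12 (adjusted p = 0.349).

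Nr1h2, which encodes the oxysterol receptor LXRβ, differed little between the groups. Nr1h2 (ENSMUSG00000060601.13, chromosome 7, 44549616 to 44553951, minus strand) was at 22.6, 20.8 and 21.4 FPKM with anti-VEGF-B and 23.3, 21.7 and 22.4 FPKM with IgG. The ranges overlapped, the coefficients of variation were 4.39% and 3.48%, and the log2 fold change was -0.06 (95% interval -0.22 to 0.11, limma adjusted p = 0.591). Its sign was positive under each of the 3 other scalings (0.02 to 0.17). The related LXRα gene, Nr1h3, was under the filter at a mean of 0.424 FPKM. Vdr (ENSMUSG00000022479.15, chromosome 15, 97854425 to 97910630, minus strand) was at 3.20, 2.84 and 2.94 FPKM with anti-VEGF-B and 3.12, 3.86 and 3.18 FPKM with IgG. Its groups overlapped, and the log2 fold change of -0.13 (95% interval -0.37 to 0.11, limma adjusted p = 0.364) turned positive under the 3 other scalings (0.05 to 0.10).

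Nr3c1, encoding the glucocorticoid receptor, was the member with the largest difference and the only one that was higher in every anti-VEGF-B library. Nr3c1 (ENSMUSG00000024431.14, chromosome 18, minus strand) was at 42.4, 44.1 and 43.2 FPKM in anti-VEGF-B replicates 1, 2 and 3. It was at 33.2, 18.9 and 39.5 FPKM in IgG replicates 1, 2 and 3. The anti-VEGF-B libraries were closely grouped (coefficient of variation 2.03%), whereas the IgG libraries were widely spread (34.6%), with replicate 2 far below the others. The log2 fold change was 0.55 ± 0.215 (SE, 95% interval 0.07 to 1.03, limma adjusted p = 0.0807), which is 0.70 after subtracting the all-gene median. The size rested largely on IgG replicate 2, without which it was 0.25 (adjusted p = 0.101). Without IgG replicate 3, the library with the myeloid markers, it was 0.76 (adjusted p = 0.0288). With libraries set to a common median it was 0.78 (adjusted p = 0.0480). The part of these libraries' other features in the difference was not tested.

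Esrra, encoding the orphan receptor ERRα, had the most negative log2 fold change of FPKM + 1 among the 9 genes. The rank depended on the value added before the logarithm. With 0.1 in place of 1, Rxra was lower at -0.56, against -0.47 for Esrra. Esrra (ENSMUSG00000024955.13, chromosome 19, 6910977 to 6921813, minus strand) was at 5.02, 5.55 and 3.57 FPKM with anti-VEGF-B and 5.37, 7.38 and 6.77 FPKM with IgG. The groups overlapped through anti-VEGF-B replicate 2, which lay above IgG replicate 1. The log2 fold change was -0.40 ± 0.155 (SE, limma adjusted p = 0.0786), or -0.25 once the all-gene median is subtracted. Under the 3 other scalings it lay between -0.20 and -0.19 (adjusted p from 0.272 to 0.307). It passed the threshold without IgG replicate 1 (-0.51, adjusted p = 0.0472) and was -0.25 without anti-VEGF-B replicate 3 (adjusted p = 0.249). The gene shares 73 bases with Trmt112 on the opposite strand, which averaged 30.3 FPKM. The library kit was stranded but the strand setting of the quantification is not given in the sources used here, so reads in the shared stretch could not be assigned with certainty.

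Ncor1 (ENSMUSG00000018501.17, chromosome 11, 62316426 to 62458541, minus strand) was at 13.0, 14.4 and 13.4 FPKM with anti-VEGF-B and 14.2, 15.7 and 15.6 FPKM with IgG. The ranges overlapped narrowly. Its log2 fold change of -0.15 (95% interval -0.33 to 0.04, limma adjusted p = 0.203) equalled the median of all genes, and it was 0.07 with libraries set to a common median. Ncor1 overlaps Ttc19 (1.34 FPKM) and Pigl (1.01 FPKM) on the opposite strand.

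**Figure D2:**
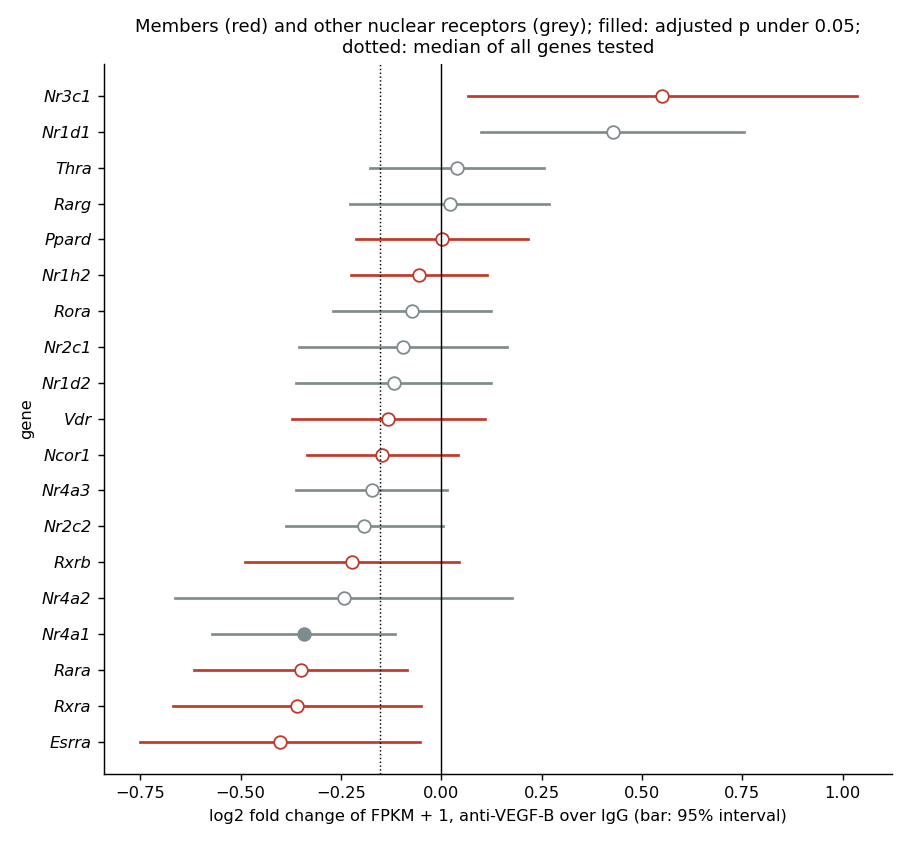
Log2 fold change of FPKM + 1 (x axis, anti-VEGF-B over IgG) of the 9 genes in red and of the 10 other nuclear receptors tested in grey, with 95% intervals; a filled point passed an adjusted p of 0.05 and the dotted line is the median of all genes tested. Nr4a1 alone is filled, Nr3c1 is highest at 0.55 and Esrra lowest at -0.40.

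Within the IgG group, replicate 2 was the highest IgG library for 7 of the 9 genes, as it was for 59.3% of all genes tested. The exceptions were Nr1h2 and Nr3c1, where it was the lowest. In the anti-VEGF-B group, replicate 2 was the highest for 6 of 9 genes (41.1% of all genes tested).

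Since FPKM are given per length, the levels of the 9 genes could be ordered. With IgG the order was Rara (32.0 FPKM), Nr3c1 (30.5), Nr1h2 (22.5), Ppard (20.0), Ncor1 (15.2), Rxrb (10.6), Esrra (6.51), Vdr (3.39) and Rxra (1.93 FPKM). From Ppard downward each gene lay above the next in all 6 libraries. Above Ppard the ranges of neighbours in this order overlapped with IgG (Rara and Nr3c1, Nr3c1 and Nr1h2, Nr1h2 and Ppard), although Rara lay above Nr1h2 in all 6 libraries. With anti-VEGF-B, Nr3c1 (43.2 FPKM) lay above Rara (24.9 FPKM) in each library. The ratio of Nr3c1 to Rara was 1.73, 1.57 and 1.95 in anti-VEGF-B replicates 1 to 3, compared with 1.15, 0.506 and 1.32 for IgG. These groups did not overlap, and the ratio does not depend on the scaling of libraries, but it was chosen after the values were seen and was not tested. The 8 receptors together summed to 122 to 133 FPKM with anti-VEGF-B and 124 to 132 FPKM with IgG. Of this sum Nr3c1 made up 33.9% ± 1.25 (SD, n = 3) with anti-VEGF-B and 23.9% ± 7.89 with IgG, Rara 19.5% ± 1.51 and 25.2% ± 3.78, and Ppard 15.7% ± 0.959 and 15.7% ± 1.61.

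To compare each receptor with its partner pool, its FPKM was divided by Rxra + Rxrb in the same library, which removes any scaling between libraries. For Ppard the ratio was 1.67, 2.14 and 2.13 with anti-VEGF-B and 1.61, 1.47 and 1.74 with IgG. The groups overlapped through anti-VEGF-B replicate 1, and the means were 1.98 ± 0.267 and 1.61 ± 0.135 (SD, n = 3; log2 difference 0.29, exact permutation p = 0.2, two-sided, 0.25 after adjustment over 5 ratios). For Nr1h2 the ratio was 2.04, 2.05 and 2.31 against 2.04, 1.45 and 2.02. These groups were barely apart, with 2.043 in anti-VEGF-B replicate 1 and 2.039 in IgG replicate 1. The log2 difference was 0.23 (exact permutation p = 0.1, the smallest the design allows, and 0.25 after adjustment), but it was 0.07 without IgG replicate 2. The ratio of Rara averaged 2.45 and 2.57 (log2 difference -0.07, exact permutation p = 0.5) and that of Vdr 0.295 and 0.272 (log2 difference 0.12, exact permutation p = 0.2). None of the 5 ratios could have passed the threshold in this design.

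**Figure D3:**
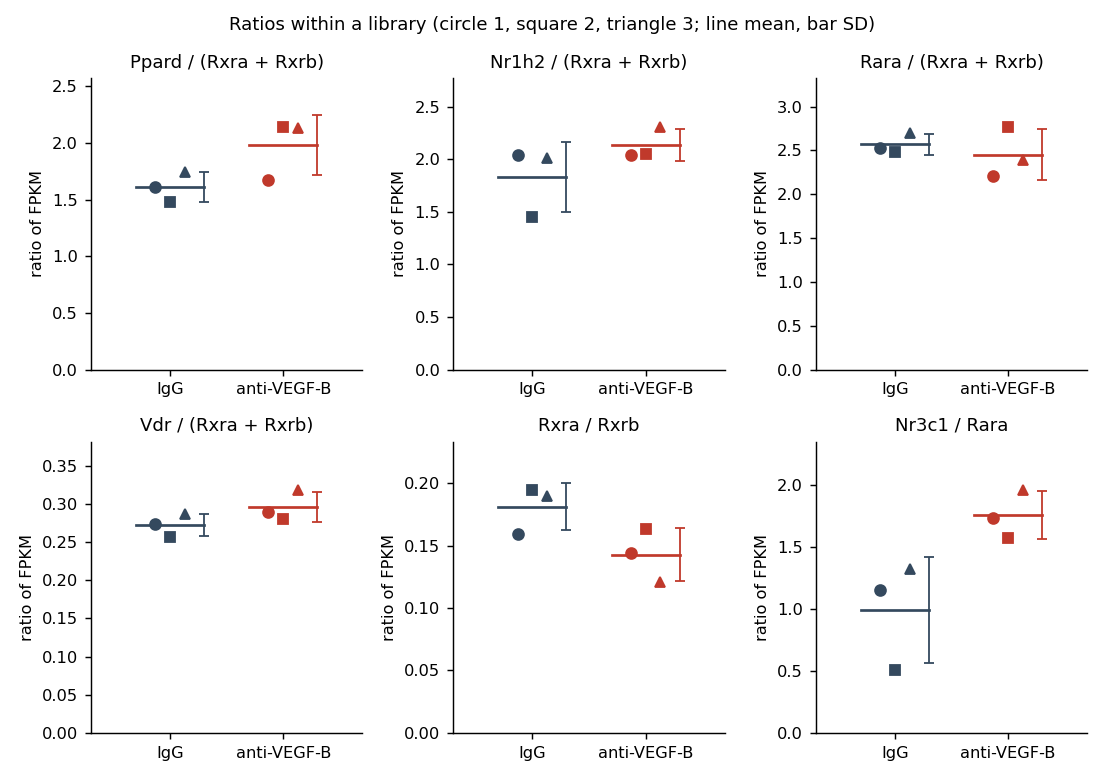
Ratios of FPKM within each library for IgG (dark blue) and anti-VEGF-B (red); circles, squares and triangles are replicates 1, 2 and 3, lines are means and bars are SD (n = 3). Ppard over the RXR sum averages 1.98 with anti-VEGF-B and 1.61 with IgG, and Nr3c1 over Rara is at least 1.57 in each anti-VEGF-B library and at most 1.32 in each IgG library.

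Of 48 nuclear receptor genes looked for, 22 were in the table and 18 were tested, 10 of them outside the 9 genes. Nr4a1, an orphan receptor induced by T cell receptor signaling, was the only receptor called (5.56% of the 18, against 28.7% of all genes tested). It was at 33.6, 40.3 and 32.1 FPKM with anti-VEGF-B and 44.5, 48.8 and 41.7 FPKM with IgG, and it fell by 0.34 on the log2 scale (limma adjusted p = 0.0343). It missed the threshold in 4 of the 6 fits that left out a library (replicates 1 and 3 of anti-VEGF-B, replicates 1 and 2 of IgG; adjusted p from 0.0618 to 0.120), and with libraries set to a common median (-0.12, adjusted p = 0.380). Its relatives Nr4a2 (-0.24, adjusted p = 0.339) and Nr4a3 (-0.17, adjusted p = 0.141) were not called. Nr1d1, the circadian repressor REV-ERBα, averaged 1.57 and 0.901 FPKM with anti-VEGF-B and IgG (log2 fold change 0.43, limma adjusted p = 0.0538). Its IgG mean was under the filter of 1 FPKM, so it was tested only through the anti-VEGF-B group, where it was higher. The groups overlapped, with anti-VEGF-B replicate 1 at 1.07 FPKM and IgG replicate 3 at 1.12 FPKM (exact permutation p = 0.2, two-sided). With that limit, Nr1d1 was called higher under the 3 other scalings (adjusted p from 0.0211 to 0.0255) and when anti-VEGF-B replicate 1 was left out (adjusted p = 0.0256). With libraries set to a common median it was the only receptor called outside the 9 genes. Nr1d1 and Thra overlap on opposite strands. The log2 fold changes of Thra, Rarg, Nr1d2, Rora, Nr2c1 and Nr2c2 lay between -0.19 and 0.04, none was called, and each of these changed sign under at least 1 alternative. Thrb, Nr2f6 and Nr6a1 were under the filter with means from 0.216 to 0.965 FPKM.

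Among the corepressors around Ncor1, 12 genes were tested, Ncor1 included, and 25.0% were called (28.7% of all genes), 2 lower and 1 higher, with a list median of 0.02. The fallers were Sin3a, a scaffold for histone deacetylases (-0.39, adjusted p = 0.0332), and Tbl1x, a subunit of the NCOR complex (-0.27, adjusted p = 0.0417). Both calls were lost under the other scalings and when replicate 1 or 3 of anti-VEGF-B or replicate 2 or 3 of IgG was left out, and that of Tbl1x also without replicate 1 of IgG. Hdac5, a class II histone deacetylase, rose from 14.5 to 22.8 FPKM (0.62, adjusted p = 0.00492). Hdac3, the deacetylase that NCOR complexes carry (-0.18, adjusted p = 0.216), and Tbl1xr1, another subunit of that complex (0.25, adjusted p = 0.0603), were not called. Tbl1xr1 was called higher under each of the 3 other scalings (adjusted p from 0.00595 to 0.0189) and when IgG replicate 2 was left out (adjusted p = 0.0479).

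Of 19 coactivators tested, 9 were called lower and none higher (23.8% and 4.87% of all genes), with a list median of -0.35. Med1, the Mediator subunit that docks to liganded receptors, fell from 12.5 to 7.34 FPKM (-0.68, adjusted p = 0.00717). Ncoa3, a p160 coactivator with histone acetyltransferase partners, fell from 15.4 to 10.4 FPKM (-0.51, adjusted p = 0.0126). Pprc1, a relative of the PGC-1 coactivators, fell too (-0.69, adjusted p = 0.00711). These 3 were called in each leave-one-out fit and under each scaling. The list count was not as stable. It was 5 and 3 when replicate 1 or 3 of anti-VEGF-B was left out, 4 when replicate 2 or 3 of IgG was left out, and 3 with quantile normalization. The share of all genes called also dropped, to 9.74% without anti-VEGF-B replicate 3.

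Among 11 chaperones and co-chaperones that hold steroid receptors, 3 were called higher and 1 lower (4.87% and 23.8% of all genes). The Hsp40 gene Dnajb1 (0.51, adjusted p = 0.00511) and Stip1, which links Hsp70 to Hsp90 (0.29, adjusted p = 0.0176), rose, the latter losing its call when anti-VEGF-B replicate 3 was left out. Hsp90ab1, at 1631 and 1441 FPKM, was not called (0.18, adjusted p = 0.104). Fkbp5, a co-chaperone that is also a classic glucocorticoid target, fell from 2.92 to 1.60 FPKM (-0.59, adjusted p = 0.00756). None of 5 genes of ligand supply tested was called by limma or passed an unadjusted p of 0.05, and 1 was under quantile normalization, libraries set to a common median and cyclic loess.

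Lists of genes known as targets of each receptor were counted in the same fit, as a description of the pathway around each member. Of 15 PPARδ targets, 3 were called lower and 1 higher (26.7%, against 28.7% of all genes; median -0.13). Plin2, a lipid droplet protein, rose from 15.8 to 20.0 FPKM (0.32, adjusted p = 0.0162), Hadhb of the mitochondrial trifunctional protein (-0.41, adjusted p = 0.0190) and Cpt1a, which admits fatty acids into mitochondria (-0.32, adjusted p = 0.0398), fell, and Angptl4 was at 0.23 (adjusted p = 0.182). The number called among the 15 ran from 0, without anti-VEGF-B replicate 3, to 5, without IgG replicate 1. Among the fits lacking a library, Cpt1a kept its call in that last one only, and Hadhb lost it when replicate 2 or 3 of anti-VEGF-B was left out. Neither Cpt1a nor Hadhb was called under any of the 3 other scalings. Of 11 LXR targets, 6 were called lower (23.8% of all genes) and none higher (4.87%), with a median of -0.28. The desaturase genes Scd2 (-0.65, adjusted p = 0.00756) and Scd1 (-0.72, adjusted p = 0.00975) and the ubiquitin ligase gene Mylip (-0.65, adjusted p = 0.0186) fell, as did the sterol exporter gene Abcg1 (-0.28, adjusted p = 0.0484). The sterol exporter gene Abca1 (0.09, adjusted p = 0.665) and the lipogenic regulator Srebf1 (0.08, adjusted p = 0.437) were not called. Abcg1 lost its call in 12 of 14 alternatives, and Mylip under the 3 other scalings and when replicate 2 or 3 of anti-VEGF-B or replicate 2 of IgG was left out.

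Beside the uncalled difference of Nr3c1, its 14 tested targets gave 2 calls lower and 1 higher (21.4%, against 28.7% of all genes; median -0.12). Per1, a clock gene, rose from 61.2 to 99.7 FPKM (0.70, adjusted p = 0.00488), whereas Fkbp5 fell as given above and the cytokine receptor gene Il7r fell by 0.32 (adjusted p = 0.0460), a call lost in 12 of 14 alternatives. Tsc22d3, which encodes the glucocorticoid-induced leucine zipper, was at 23.6, 23.8 and 21.5 FPKM with anti-VEGF-B and 26.2, 24.0 and 26.6 FPKM with IgG (-0.15, adjusted p = 0.178). Of 7 RAR targets, 2 were called lower (28.6% called, against 28.7% of all genes), Itga4 (an integrin subunit, -0.51, adjusted p = 0.0248) and Stra6 (a retinol transporter, -0.37, adjusted p = 0.0278), and Tgm2 was at -0.44 (adjusted p = 0.0798). Itga4 averaged 0.694 FPKM with anti-VEGF-B and 1.43 FPKM with IgG. It thus passed the filter of 1 FPKM only through the IgG group, where it was higher, so little weight can be put on its call. Both RAR target calls were lost under the 3 other scalings and when replicate 1 or 3 of anti-VEGF-B or replicate 3 of IgG was left out, and that of Stra6 also without replicate 2 of IgG. Txnip, the thioredoxin-binding protein gene, fell from 65.3 to 21.0 FPKM and was 1 of 2 VDR targets tested (-1.59, adjusted p = 0.00488). The other, Tnfsf11, was not called (-0.36, adjusted p = 0.0705). Only 2 of 8 VDR targets looked for were tested, too few to set against the 23.8% of all genes called lower. Of 14 ERRα targets, Esrra itself included, 5 were called lower (35.7%, against 23.8% of all genes) and none higher (4.87%), with a median of -0.32. Sdhb (-0.59, adjusted p = 0.0119), Mfn2 (-0.66, adjusted p = 0.0137), Idh3a (-0.41, adjusted p = 0.0312) and Cycs (-0.35, adjusted p = 0.0359) fell, and Acadm (-0.33, adjusted p = 0.0653) and Atp5b (-0.10, adjusted p = 0.363) were not called. Of these, Sdhb was called whichever library was left out and Mfn2 in each such fit but the one lacking anti-VEGF-B replicate 3, while Idh3a and Cycs lost their calls in 5 of 6 and under the 3 other scalings. The ERRα count ranged from 1, without anti-VEGF-B replicate 3, to 6, without IgG replicate 1, and the LXR count from 2 to 5 in the same kind of fit.

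**Figure D4:**
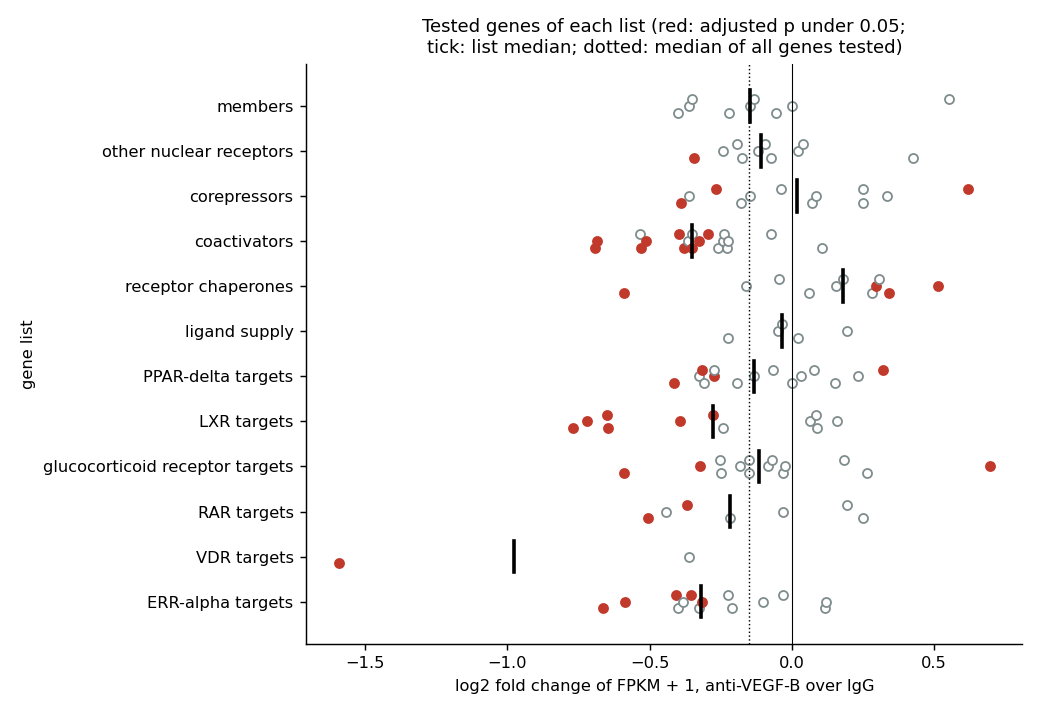
Log2 fold change of FPKM + 1 (x axis, anti-VEGF-B over IgG) of each tested gene, by gene list (y axis); red points passed an adjusted p of 0.05, black ticks are list medians and the dotted line is the median of all genes tested. No member is red, coactivators have 9 red points, LXR targets 6 and ERRα targets 5, all below 0.

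The plot of the 9 genes over all settings shows how far each value moved with the choice of scaling, filter, pseudocount and libraries. Nr3c1 stayed above 0 (0.25 to 0.78), and Rxra, Rara and Esrra stayed below 0 (-0.56 to -0.12 over these 3) under every alternative run, as did Rxrb (-0.30 to -0.01). Ppard, Nr1h2, Vdr and Ncor1 changed sign under at least 1 alternative.

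**Figure D5:**
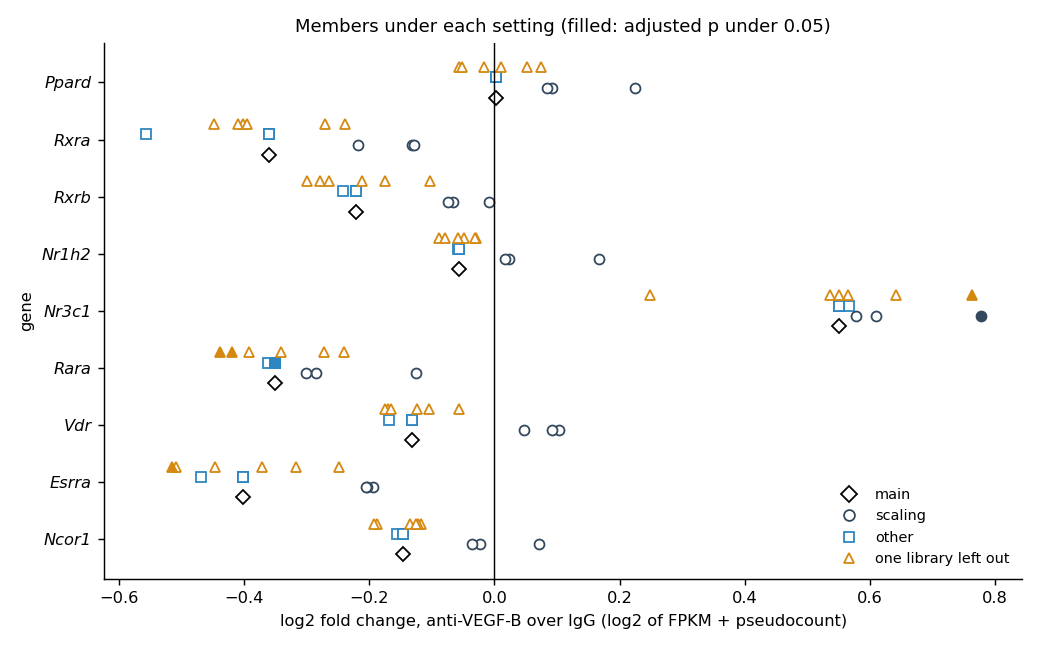
Log2 fold change (x axis, anti-VEGF-B over IgG) of the 9 genes (y axis) in the reported fit (diamonds), under 3 other scalings (circles), with another pseudocount, filter, variance estimate or the replicate block (squares), and with 1 library left out (triangles); a filled symbol passed an adjusted p of 0.05. Filled symbols appear for Rara (3), Nr3c1 (2) and Esrra (1).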

How the data were processed

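RNA-Seq of 6 libraries of activated CD4+ T cells was analysed, 3 for each antibody. The values are FPKM of protein-coding genes in a table the authors deposited. Their methods name hisat2 for alignment, StringTie for assembly and Ballgown for quantification, and the build is GRCm38. No scaling between libraries is given in the sources used here. FPKM carry no depth and whole reads could not be recovered (at most 1.38% of low genes shared a ratio between a pair of libraries), so no count model was run and the only error is the spread between libraries.

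Genes averaging 1 FPKM or more (8816) entered a limma 3.58.1 fit of log2(FPKM + 1) with empirical Bayes and trend (R 4.3.3), over all 6 libraries, and a gene was called at a Benjamini-Hochberg adjusted p under 0.05. The procedure was tested on simulated data with 8816 genes, and of 200 genes changed by a log2 of 1 it recovered 181, and of 200 changed by 0.5 it recovered 83. Only 200 genes were changed in each simulation, with noise independent between genes, whereas 28.7% of genes were called in the data. The recovery rates may therefore not hold for the real libraries. Single values and 5 ratios were compared with exact permutation tests. The 9 genes, the lists, the tests and the alternatives were chosen with earlier results of these data known. Named genes were the 9, every other receptor over the filter, a fixed set of partners and targets, and up to 2 called genes per list and direction with the lowest p. Likeness to Ppard was the root mean square difference of centred values. Fkbp5, Acadm, Crabp2, Nrip1 and Esrra are each in more than 1 list. Alternatives changed the scaling, the filter, the pseudocount, the variance estimate, the replicate block and the libraries. Some receptor and corepressor genes are not reported here and were left out of the lists.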

Additional observations from a re-analysis of the deposited data

How the results depend on the processing

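Of the 9 genes, over the alternatives run, only Ppard, Nr1h2, Vdr and Ncor1 changed sign. Ppard gave -0.0567, -0.0520 and -0.0172 when replicate 2 of anti-VEGF-B, replicate 1 of IgG or replicate 3 of IgG was left out (range -0.0567 to 0.0748). In the order quantile normalization, libraries set to a common median and cyclic loess (chosen after seeing the data), Nr1h2 gave 0.0241, 0.168 and 0.0167, Vdr 0.104, 0.0466 and 0.0923, Nr1d2 0.0948, 0.0700 and 0.0997, Rora 0.0702, 0.140 and 0.0658, and Nr2c1 0.118, 0.0312 and 0.138. With a common median alone Ncor1 gave 0.0721, Nr2c2 0.0203, Nr4a3 0.0477, Hdac3 0.0368, Tsc22d3 0.0745 and Atp5b 0.131. Leaving out a library gave Thra -0.00524 to 0.105, Rarg -0.0392 to 0.120 and Abca1 -0.0230 to 0.197.

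Members called lower were 0 in the reported fit and 0 to 2 with a library left out, and members called higher 0 to 1. With libraries set to a common median 1 member was called higher (Nr3c1). No clear pairing of the libraries by replicate number was seen (correlations of same-numbered deviations -0.0296, 0.110 and 0.0891, with only number 2 matched best by its own). With 3 libraries per group these values cannot settle whether the libraries were paired, and the labels do not say. With the replicate block 1 member was called lower (Rara, adjusted p = 0.0189), and 2578 genes were called in all, against 2528 without it. It also added calls for Nr1d1 (adjusted p = 0.0404) and Hsp90ab1 (adjusted p = 0.0430), and Abcg1, Il7r, Idh3a and Cycs lost theirs. Other receptors called numbered 2 with the replicate block, quantile normalization or cyclic loess (Nr4a1 and Nr1d1), 2 with no filter (Nr4a1 and Nr2f6), 0 without variance moderation, where 12 genes in all were called, and 0 to 1 with a library left out. The ratio of Rara to RXR turned from -0.07 to 0.230 over Rxra alone and ranged from -0.162 to 0.00234 with a library left out. A filter at a mean of 5 FPKM removed Rxra and Vdr, so they have no value there. The cause of these changes was not tested. Genes called over all genes ranged from 859 to 2467 with a library left out. Depth is unknown, so no limit from counting can be given.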
